A study of Mus musculus with 15 samples.

Results

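The cytosolic ribosomal protein genes were the 50 genes whose platform symbol is Rpl or Rps followed directly by a digit, together with Rplp0, Rplp2 and Rpsa where a probe set carried that name alone, without pseudogenes and S6 kinase genes, of 18193 genes measured in all. The membership follows the names alone, and 26 members carry Rpl names and 24 carry Rps names. One of them, Rps19bp1, encodes a protein that binds Rps19 and is no ribosomal protein itself. A gene was represented by its brightest probe set on average over 15 arrays, and 24 members had more than 1 probe set. A further 110 probe sets were annotated to a ribosomal protein gene together with other genes. They covered 46 ribosomal protein genes, 31 of which were not among the 50 for that reason.

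Microarrays measured RNA of astroglia from the adult mouse brain that respond to Sonic hedgehog, with 5 arrays each for the subventricular zone (SVZ), for hippocampus and for cerebellum. All 3 groups shared the genotype Gli1-CreER;GFAP-GFP;R26tdTomato, in which the Gli1 promoter drives a tamoxifen-dependent recombinase that switches on tdTomato, and the GFAP promoter drives GFP. Male mice aged 6 to 8 weeks received 2 doses of 10 mg tamoxifen, and cells positive for both labels were sorted 3 weeks later, so the sort selected on the activity of both promoters. Each array carried RNA from a pool of 10 to 12 mice, and p-values therefore measure the spread between pools. The SVZ and the hippocampus hold neural stem cells and the cerebellum served as the comparison, so stem cell presence and brain region cannot be told apart.

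A ribosome joins a small subunit, which reads the mRNA, to a large subunit, which forms the peptide bonds. Many mRNAs of ribosomal proteins begin with a C followed by a run of pyrimidines, the 5′ terminal oligopyrimidine motif, through which the kinase complex mTORC1 and the protein Larp1 control their translation. Neural stem cells are known to raise protein synthesis when they leave quiescence, much of it by control of translation, which an RNA level does not show.

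The bases around the annotated start, where this motif would lie, are given for members described below. The promoter annotation used, on GRCm38.p6, held 44 of the 50 members, with 52 start sites. Each sequence gives the 15 bases before the start and the 15 bases from the start on, and capitals mark its longest run of C and T where that run has at least 5 bases. Rps27l has 2 annotated starts, and the first is given.
Rpl14, chr9:120571502-120571531, plus strand: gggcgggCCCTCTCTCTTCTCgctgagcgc
Rplp2, chr7:141447636-141447665, plus strand: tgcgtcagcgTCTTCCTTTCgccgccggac
Rpl22l1, chr3:28805493-28805522, plus strand: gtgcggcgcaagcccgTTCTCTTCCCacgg
Rpl41, chr10:128549154-128549183, minus strand: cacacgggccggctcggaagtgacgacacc
Rps6, chr4:86857353-86857382, minus strand: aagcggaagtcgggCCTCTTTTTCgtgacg
Rpsa, chr9:120127751-120127780, plus strand: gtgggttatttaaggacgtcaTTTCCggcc
Rps27l, chr9:66946071-66946100, plus strand: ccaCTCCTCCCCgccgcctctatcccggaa

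Rpl14, Rplp2 and Rps6 had a C at the annotated start followed by 4 pyrimidines, the plainest reading of the motif. That held for 8 of 44 members, or 18.2%, and for 813 of 27025 genes in the table, or 3.01%. Annotated starts can lie some bases away from the start in use, and the windows of Rpl41, Rpl22l1, Rpsa and Rps27l had other letters at that position. The letters CTTT, searched for on both strands and able to lie inside the pyrimidine run, stood on the transcript strand in 14 of 44 members, or 31.8%, against 13.8% of all genes. On the opposite strand they stood in 3 of 44, or 6.82%, against 13.4%. A match of letters is a description and says nothing of binding or use.

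Most members read at a high level in all 3 regions, on the deposited log2 scale. The mean over the 15 arrays was above 3 for 39 members, against 26.5% of all genes, while the median gene of an array lay between 1.42 and 1.56. The 11 members with a mean of 3 or less included Rps16, Rps25, Rps27, Rpl12, Rpl37 and Rpl39, whose proteins are standard parts of the ribosome. A level on this platform was therefore not read as an amount of RNA. Others of the 11 were paralogs known from few tissues, Rpl3l of striated muscle and Rpl39l of male germ cells. In the SVZ Rpl3l read 1.05 ± 0.19 and Rpl39l 0.80 ± 0.09 (SD, n = 5).

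The median level of the 39 members above 3 was 7.08, 7.89, 7.37, 7.58 and 7.72 on the SVZ arrays. It was 7.69, 8.69, 7.42, 7.22 and 8.09 on the hippocampus arrays. On the cerebellum arrays it was 8.04, 7.70, 8.45, 7.90 and 8.42. The 3 regions overlapped, with hippocampus array 2 the highest of all and SVZ array 1 the lowest.

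**Figure D1:**
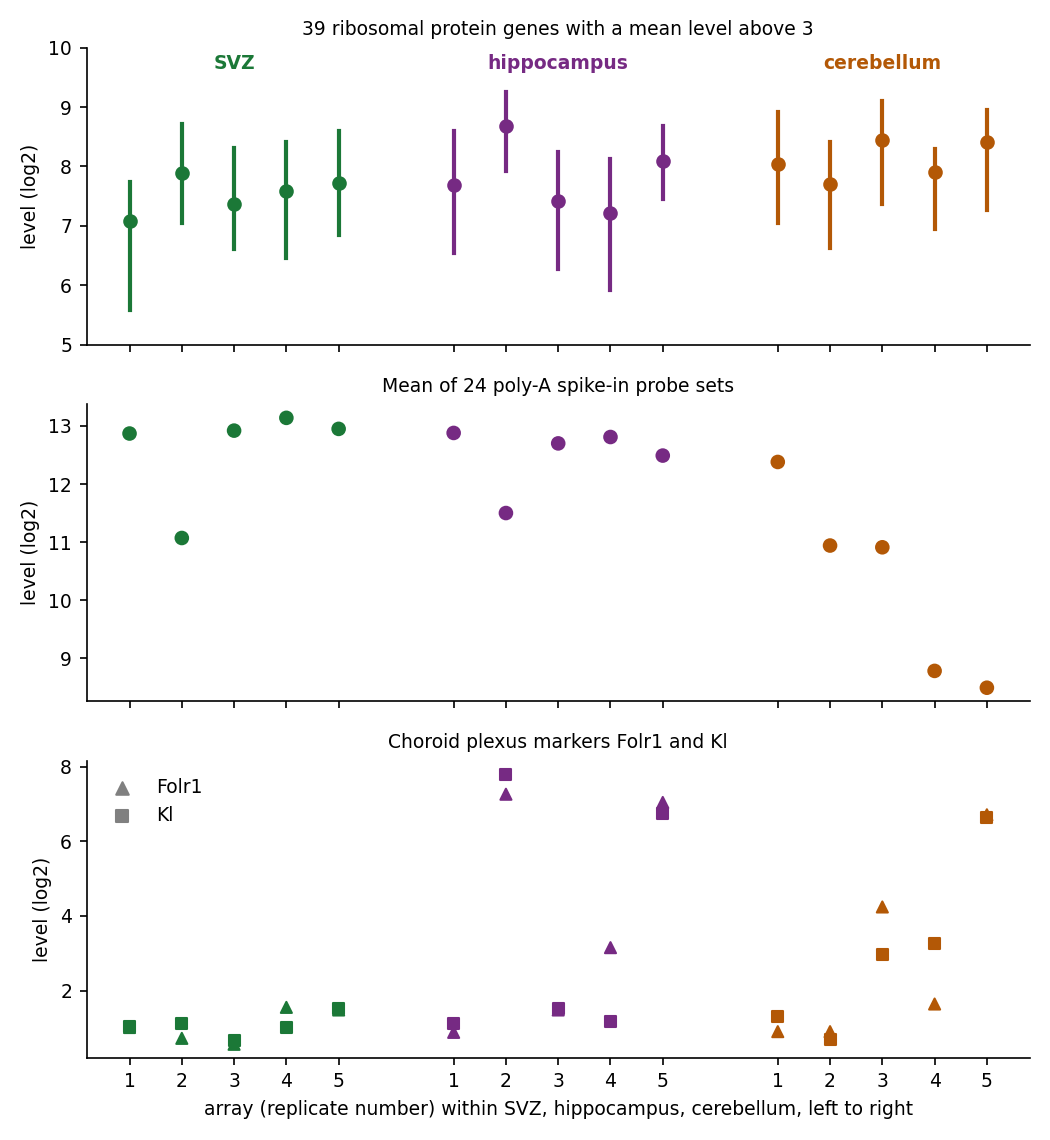
The top panel gives the median (point) and the quartiles (line) of the 39 ribosomal protein genes above 3 on each array, in log2 units, and the panels under it give the mean of 24 spike-in probe sets and the choroid plexus markers Folr1 and Kl on the same arrays. The member medians of the 3 regions overlap, the spike-in level is lowest on cerebellum arrays 4 and 5, and Folr1 and Kl stand above 6 on hippocampus arrays 2 and 5 and on cerebellum array 5.

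The arrays also read markers of other cells, and differed in technical measures. Of 10 astroglial markers, 1 was called higher and 2 lower in SVZ than in cerebellum, with 0 higher and 3 lower in hippocampus, and the median marker level lay at 8.58 to 9.42 in SVZ, 7.54 to 9.43 in hippocampus and 9.24 to 10.2 in cerebellum. Gfap, whose promoter drives the sort label, averaged 4.51 ± 1.06 in SVZ, 6.93 ± 0.63 in hippocampus and 4.99 ± 1.23 in cerebellum (SD, n = 5 each). Of 9 microglial markers, 3 were called higher in SVZ than in cerebellum and 2 in hippocampus than in cerebellum. Their median level was 2.68 to 7.14 in SVZ, 2.25 to 5.45 in hippocampus and 1.28 to 2.13 in cerebellum. The defining microglial gene Csf1r averaged 8.88 ± 1.97 in SVZ, 7.76 ± 1.56 in hippocampus and 3.54 ± 0.99 in cerebellum (SD, n = 5 each), and P2ry12 averaged 1.52 ± 0.54 in SVZ, 1.98 ± 1.10 in hippocampus and 1.54 ± 0.46 in cerebellum. The mean of the poly-A spike-in probe sets, RNA added in a fixed amount during preparation, was 11.07 to 13.14 in SVZ, 11.50 to 12.88 in hippocampus and 8.49 to 12.38 in cerebellum. Arrays correlated with those of their own region at a mean of 0.793 to 0.859 in SVZ, 0.803 to 0.839 in hippocampus and 0.943 to 0.958 in cerebellum. The share of genes above 3 was 21.1% to 27.5% in SVZ, 21.6% to 29.0% in hippocampus and 28.6% to 32.0% in cerebellum, lowest on SVZ array 1. These measures moved with the regions. On SVZ array 1 the 3′ minus 5′ control signal of Actb was 0.87, against -0.37 or lower on every other array. That of Gapdh was 3.41 there, within the SVZ range of 2.92 to 3.94. The part of all these measures in the member results was not tested, apart from the spike-in level, which is entered as a covariate where stated.

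SVZ against cerebellum is the first comparison of the series design. Among the members only Rpl14 passed the test, at a lower level in SVZ, and no member was higher. Genes counted as called where limma gave an adjusted p under 0.05, with Benjamini-Hochberg adjustment over all genes, and 5.51% of all genes were called here, 1.03% higher and 4.47% lower. A count of 1 of 50 members lies near that background, and Rpl14 itself has a mean of 2.22. Of the 39 members with a mean above 3, 0 were called. Of the 4816 genes with a mean above 3, 113 were called higher and 481 lower. At an unadjusted p under 0.05, 0 members were higher and 9 lower, against 7.55% of all genes higher and 13.6% lower. Of the 39 members above 3, 0 were higher and 7 lower, while 281 of the 4816 genes above 3 were higher and 1524 lower. In bulk RNA, fewer cells of a type and less RNA per cell cannot be told apart.

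Rpl14 is a protein of the large subunit. Its own probe set read 0.96, 0.87, 1.24, 1.07 and 0.85 in SVZ. In hippocampus it read 3.85, 2.21, 1.56, 1.26 and 0.99, and in cerebellum 4.28, 3.90, 3.58, 3.32 and 3.37. SVZ lay below cerebellum on every array and close to the lowest values of the scale, and hippocampus ran from the SVZ range into that of cerebellum, with array 1 inside the cerebellum range. The difference of SVZ to cerebellum was -2.69 ± 0.42 (SE, adjusted p = 0.00185, limma). The SVZ values lay near the median of all probe sets on those arrays, which was at most 1.31, where a further decrease cannot be read, so the difference gives no exact fold.

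The other probe sets that name Rpl14 did not show a difference of that size. Each of these 5 also names the pseudogene Rpl14-ps1, and they read between 5.5 and 9.3 on the log2 scale. In SVZ against cerebellum their differences were 0.24, -0.74, -0.78, -0.65 and -0.72, none past the test (adjusted p from 0.283 to 0.778, limma over 35055 probe sets). The 95% interval of the probe set of Rpl14 alone, -3.60 to -1.79, lay below the intervals of all 5. Which of them follows the mRNA of Rpl14 cannot be read from these files.

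**Figure D2:**
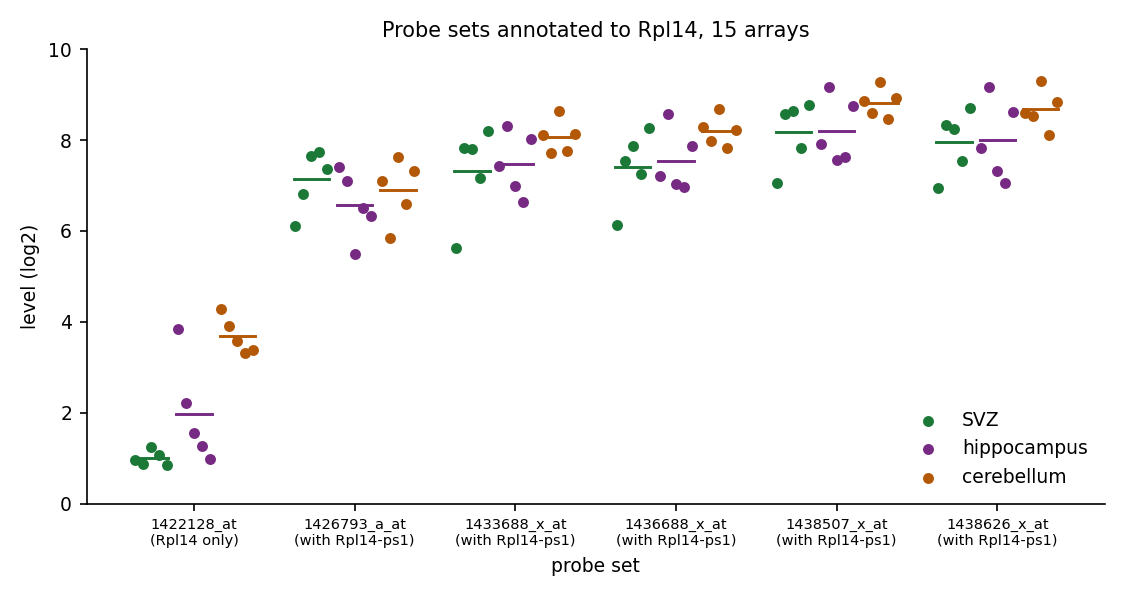
Log2 level of the probe set annotated to Rpl14 alone (left) and of the 5 probe sets annotated to Rpl14 and Rpl14-ps1, with 1 point per array and the mean of each region as a line. Only the left probe set separates the SVZ arrays (0.85 to 1.24) from the cerebellum arrays (3.32 to 4.28), and on the other 5 the regions overlap.

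Rps27l, a paralog of Rps27 that p53 is known to induce in human cells, had the next smallest p of the members. It read 4.60, 4.56, 3.20, 3.35 and 2.48 in SVZ, 3.65, 6.57, 1.62, 5.37 and 6.29 in hippocampus, and 6.59, 5.36, 6.34, 5.35 and 6.47 in cerebellum. All SVZ arrays lay below all cerebellum arrays, and hippocampus covered both ranges. The difference of SVZ to cerebellum was -2.38 ± 0.80 (adjusted p = 0.102, limma) and did not pass the test. With only the arrays of both regions in the fit it did (adjusted p = 0.0134, limma), and likewise with the genes at or below 3 left out (adjusted p = 0.0444, limma) or without hippocampus array 3 (adjusted p = 0.0258, limma). Without any 1 other array it did not pass (adjusted p up to 0.208, limma). Nor did it pass with quantile normalization, median centring or the spike-in covariate. A second probe set of Rps27l gave -2.30 ± 0.50 and passed in a fit over all probe sets of 1 gene (adjusted p = 0.0162, limma), and the remaining one gave -1.38 (adjusted p = 0.231, limma). Rps27 itself averaged 0.84 ± 0.17 in SVZ, 1.23 ± 0.51 in hippocampus and 1.01 ± 0.34 in cerebellum (SD, n = 5) on its own probe set, where values are too low to compare. A probe set shared by Rps27 and Rps27rt had a mean of 9.31 and gave -0.09 ± 0.39 in SVZ against cerebellum (adjusted p = 0.915, limma), though it cannot be assigned to Rps27 alone.

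Rpl14 and Rps27l were the 2 members whose SVZ and cerebellum arrays did not overlap. In both the SVZ was the lower, and 8.62% of all genes had no overlap, 6.02% with SVZ lower. The same 2 members also met the study's own threshold, a change over 4-fold with p under 0.01 before adjustment. It was met by 3.21% of all genes. Of the 39 members above 3, Rps27l alone met either condition. Of the 4816 genes above 3, 732 had SVZ lower without overlap and 428 met the threshold.

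No other member of the large subunit passed the test. Rpl41, the shortest ribosomal protein, read 7.69, 9.38, 9.05, 9.55 and 9.58 in SVZ, 10.70, 10.98, 9.67, 8.58 and 10.29 in hippocampus, and 10.02, 10.18, 10.69, 9.44 and 10.71 in cerebellum. SVZ array 1 was far below its group, and the difference of SVZ to cerebellum, -1.16 ± 0.46, did not pass the test (adjusted p = 0.171, limma). Rpl22l1, the paralog of the RNA-binding protein Rpl22, averaged 4.40 ± 0.86 in SVZ, 5.42 ± 0.84 in hippocampus and 5.67 ± 0.86 in cerebellum (SD, n = 5), a difference of -1.26 ± 0.51 for SVZ against cerebellum (adjusted p = 0.173, limma). Rpl22 itself averaged 6.95 ± 0.53 in SVZ, 7.24 ± 1.28 in hippocampus and 7.82 ± 0.53 in cerebellum. Rpl11, which binds Mdm2 when free of the ribosome and so stabilises p53, gave -0.75 ± 0.34 in SVZ and -0.84 ± 0.34 in hippocampus against cerebellum (adjusted p = 0.223 and 0.188, limma).

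The stalk of the large subunit, which recruits the GTPases of translation, showed no difference past the test. Rplp0, which anchors the stalk, averaged 6.45 ± 0.59 in SVZ, 6.69 ± 0.83 in hippocampus and 6.71 ± 0.52 in cerebellum (SD, n = 5). Rplp2, one of the acidic stalk proteins, averaged 8.35 ± 0.81 in SVZ, 8.08 ± 0.75 in hippocampus and 8.34 ± 0.07 in cerebellum. For SVZ against cerebellum the 95% interval ran from -1.11 to 0.59 for Rplp0 and from -0.81 to 0.84 for Rplp2.

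Of the small subunit genes, Rps6, the substrate of the S6 kinases, varied widely between forebrain arrays. It read 1.56, 3.17, 3.56, 4.49 and 1.60 in SVZ, 1.42, 4.15, 2.70, 1.17 and 3.46 in hippocampus, and 3.78, 3.66, 3.80, 3.69 and 4.71 in cerebellum. The forebrain arrays reached the cerebellum range but also lay more than 2 log2 units under it. The differences to cerebellum were -1.05 ± 0.64 in SVZ and -1.35 ± 0.64 in hippocampus (adjusted p = 0.361 and 0.254, limma). The mean of this probe set was 3.13. The lowest forebrain readings, 1.17 to 1.60, lay near the median of all probe sets, at most 1.31, where values are too low to compare. A second probe set of Rps6, with a mean of 0.96, was lower still. Rps20 and Rps10, proteins of the small subunit head that are ubiquitinated when ribosomes collide in human cells, gave -1.21 ± 0.51 and -0.95 ± 0.50 in SVZ against cerebellum (adjusted p = 0.192 and 0.297, limma). SVZ array 1 held the lowest value of both genes, 5.10 and 4.21. Probe sets of the _s, _x and _a types can match more than 1 transcript. Most of the 39 members above 3 were read by such probe sets, so their values may hold signal of more than 1 transcript. With these types left out, Rps20 and Rps10 were read only by probe sets with means of 0.78 and 1.01. The differences there, 0.24 for Rps20 and 0.28 for Rps10, lie too low on the scale to give a sign. The further probe sets with a mean above 3 were negative for both genes, at -1.41 for Rps20 and from -1.09 to -0.23 for Rps10.

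Rpsa, a small subunit protein also known as the laminin receptor, ran the other way. It read 9.02, 9.52, 9.07, 9.96 and 9.28 in SVZ, 9.63, 9.74, 9.51, 9.42 and 10.21 in hippocampus, and 9.55, 8.83, 9.31, 8.06 and 8.95 in cerebellum. The groups overlapped, and the differences to cerebellum were 0.43 ± 0.27 in SVZ and 0.76 ± 0.27 in hippocampus (adjusted p = 0.38 and 0.134, limma).

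**Figure D3:**
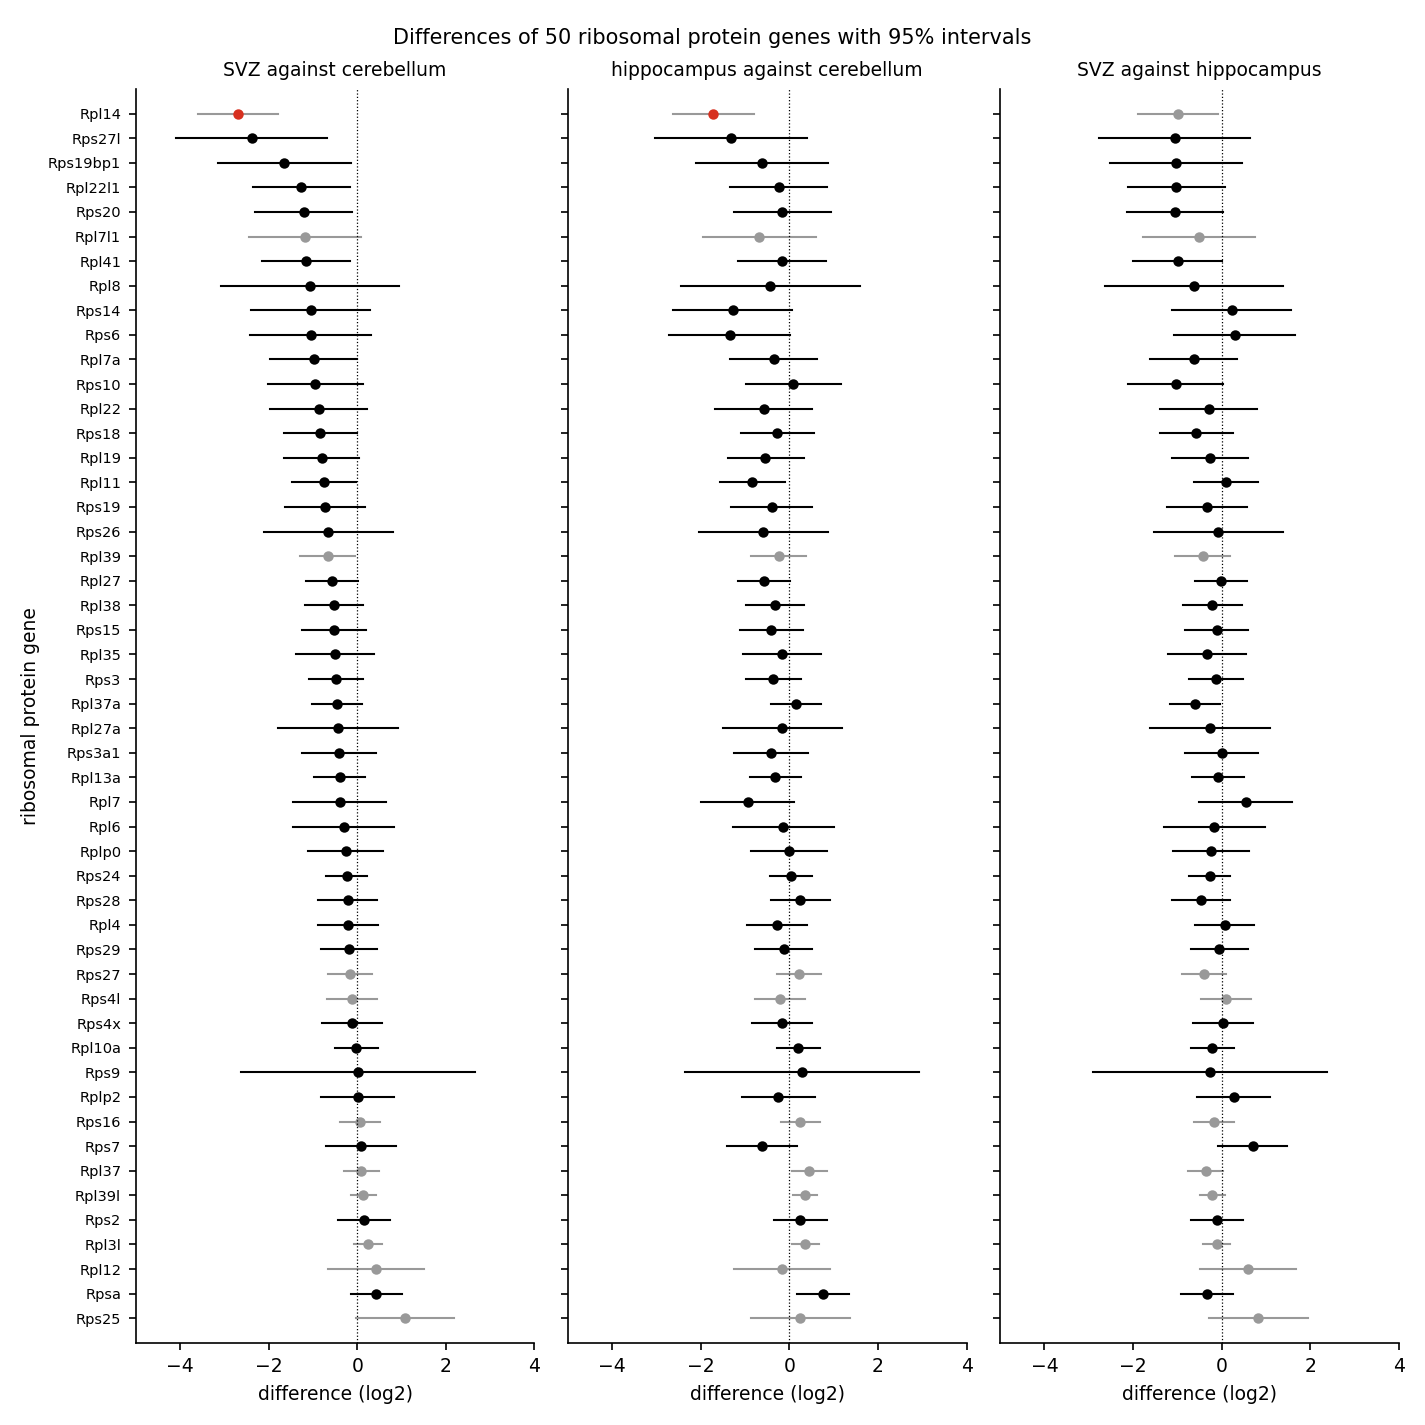
Difference in log2 level of each of the 50 genes with its 95% interval, for SVZ against cerebellum, hippocampus against cerebellum and SVZ against hippocampus from left to right. Red points passed the test, which Rpl14 alone did in the left and middle panels, and lines in grey belong to genes with a mean of 3 or less.

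Over the whole set the differences were small and mostly negative. In SVZ against cerebellum the median over the 50 members was -0.44 and 39 were negative, against a median of 0.068 over all genes. Of all genes 73.5% had a mean of 3 or less, so the 39 members above 3 are also set beside the 4816 genes above 3. Of these members 34, or 87.2%, were negative with a median of -0.502, and of these genes 76.2% were negative with a median of -0.715. With quantile normalization the members had a median of -0.12 and 33 negative, and with the spike-in level as a covariate -0.25 and 32 negative. The 39 members above 3 had medians of -0.18 and -0.29 under these settings, with 26 negative in each. All genes above 3 moved as well, to -0.24 with 60.2% negative and to -0.44 with 67.4% negative. The 19 large subunit genes above 3 had a median of -0.502 and the 19 small subunit genes -0.482.

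Hippocampus against cerebellum gave the same single call. Rpl14 had a difference of -1.72 ± 0.42 (adjusted p = 0.0322, limma), and no member was higher. Of all genes 4.78% were called, 0.808% higher and 3.97% lower. Of the 39 members above 3, 0 were called, while 85 of the 4816 genes above 3 were called higher and 440 lower. By the study's own threshold 0 members were called here, against 2.87% of all genes. This call rested on the arrays and settings used. It was lost without any 1 of the 5 cerebellum arrays or of hippocampus arrays 3, 4 and 5 (adjusted p from 0.0538 to 0.0783, limma), after quantile normalization (-1.30, adjusted p = 0.247, limma), with only the arrays of both regions in the fit (adjusted p = 0.0771, limma) and with the spike-in covariate (-2.13, adjusted p = 0.116, limma). On the 5 shared probe sets the differences were -0.33, -0.59, -0.66, -0.62 and -0.68, none past the test (adjusted p from 0.359 to 0.681, limma). Both comparisons share the cerebellum arrays, so the second is no independent repeat of the first.

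At an unadjusted p under 0.05, 4 members were higher and 2 lower in hippocampus than in cerebellum, against 7.55% and 12.6% of all genes. Of the 39 members above 3, 1 was higher and 1 lower, while 195 of the 4816 genes above 3 were higher and 1417 lower. Rpl39l and Rpl3l were the 2 members whose arrays did not overlap in that comparison, with hippocampus the higher, as in 2.68% of all genes (7.98% in either direction). Rpl39l read 0.84, 0.81, 1.31, 0.91 and 1.18 in hippocampus, against 0.51, 0.78, 0.70, 0.59 and 0.73 in cerebellum. Rpl3l read 1.13, 0.94, 1.53, 1.17 and 1.03 in hippocampus, against 0.76, 0.90, 0.91, 0.88 and 0.56 in cerebellum. The differences, 0.35 ± 0.13 and 0.36 ± 0.14, lay among the lowest values of the arrays and did not pass the test (adjusted p = 0.15 and 0.188, limma).

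The median over the 50 members was -0.241 in hippocampus against cerebellum, with 36 negative, and its direction depended on the scaling. It was 0.10 with quantile normalization and 0.06 with the spike-in covariate, with 17 and 24 members negative. Of the 39 members above 3, 31 were negative at a median of -0.284, beside a median of -0.699 over all genes above 3, of which 78.7% were negative.

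SVZ against hippocampus compared the 2 stem cell regions, and no member passed the test, with 0.022% of all genes called by limma. At an unadjusted p under 0.05, 0 members were higher and 2 lower, against 3.53% and 3.49% of all genes. These 2 were Rpl14, at -0.98 ± 0.42 (adjusted p = 0.684, limma), and Rpl37a, a zinc finger protein of the large subunit, at -0.60 ± 0.26 (adjusted p = 0.699, limma). Rpl37a read 7.36, 7.89, 7.69, 8.02 and 7.63 in SVZ and 8.40, 8.71, 7.35, 8.56 and 8.56 in hippocampus, with 1 hippocampus array below every SVZ array. No member's arrays were free of overlap, against 0.813% of all genes, and none met the study's own threshold, against 0.357%. The median over the 50 members was -0.229 with 39 negative, beside a median of -0.004 and 50.4% negative over all genes. Of the 39 members above 3, 31 were negative at a median of -0.242, while the genes above 3 had a median of 0.055 and 46.7% negative. The median of the members above 3 stayed negative under quantile normalization (-0.27), median centring (-0.22) and the spike-in covariate (-0.22). The genes above 3 had medians of 0.01, 0.08 and 0.06 under these settings. The size of the median over the 50 members moved with single arrays. It was -0.093 without hippocampus array 2 and -0.321 without SVZ array 2.

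On the deposited scaling, the data also bound how far the members can differ. In SVZ against cerebellum the 95% interval lay wholly between -1 and 1 for 10 of the 39 members above 3, or 25.6%, against 5.29% of all genes above 3. In hippocampus against cerebellum it did so for 12 members, or 30.8%, against 5.59%, and in SVZ against hippocampus for 14, or 35.9%, against 10.7%. Rpl4, Rpl10a, Rpl13a, Rps2, Rps4x, Rps24 and Rps29 met this in all 3 comparisons, all read by probe sets of the _x or _a type. Rpl10a, for example, averaged 7.36 ± 0.26 in SVZ, 7.57 ± 0.53 in hippocampus and 7.38 ± 0.18 in cerebellum (SD, n = 5). The interval excluded a level more than 2 times that of the other region for 37, 33 and 30 of the 39 members in these comparisons. It excluded a level more than 2 times lower for only 11, 14 and 17 of the 39, so a 2-fold decrease was not excluded for the other members. These bounds depend on the scaling. With quantile normalization the median of the 39 members against cerebellum moved from -0.50 to -0.18 in SVZ and from -0.28 to 0.09 in hippocampus. The widest interval of all was that of Rps9.

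Members varied between arrays of a region as follows. The median SD of the 39 members was 0.59 in SVZ, beside 1.00 for all genes above 3, with 0.78 beside 1.00 in hippocampus and 0.44 beside 0.48 in cerebellum. Many members had their highest or lowest value on the same array. Hippocampus array 2 held the highest hippocampus value for 32 of the 39 members and for 31.6% of all genes above 3, and every 1 of the 39 lay above its own hippocampus mean there. Hippocampus array 4 was the lowest for 25 members (21.6% of genes), SVZ array 1 for 24 (34.1%) and cerebellum array 2 for 21 (17.1%). Cerebellum array 3 was the highest for 20 members (19.6% of genes) and array 5 for 13 (20.7%).

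Markers of the choroid plexus, the tissue that makes cerebrospinal fluid, were high on some of these arrays. Folr1 read 7.26 and Kl 7.79 on hippocampus array 2, and 7.04 and 6.75 on hippocampus array 5. On hippocampus arrays 1 and 3 both stayed under 2, and on array 4 they read 3.15 and 1.18. On cerebellum array 5 they read 6.71 and 6.65, on array 3 4.24 and 2.97, and on array 4 1.64 and 3.25. On SVZ arrays both stayed under 2, also on array 2, which had the highest member median of that region. Ttr, the transthyretin gene that the choroid plexus expresses strongly, followed another order, at 5.96 to 10.35 in SVZ, 11.18, 13.94, 12.83, 12.30 and 13.83 in hippocampus, and 11.76, 6.87, 13.45, 13.39 and 13.99 in cerebellum. It was thus high on all hippocampus arrays and on 4 of 5 cerebellum arrays, including arrays where Folr1 and Kl were low. None of the 6 ependymal and choroid markers passed the test in any comparison. Other measures differed between these arrays as well. The spike-in level was lowest of its region on SVZ array 2 (11.07) and hippocampus array 2 (11.50). The median of the endothelial markers was highest of its region on the same arrays, at 3.42 and 3.84. In cerebellum the spike-in level was lowest on arrays 5 and 4, at 8.49 and 8.78, where the member medians were 8.42 and 7.90. The part of these measures and markers in the array pattern of the members was not tested.

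**Figure D4:**
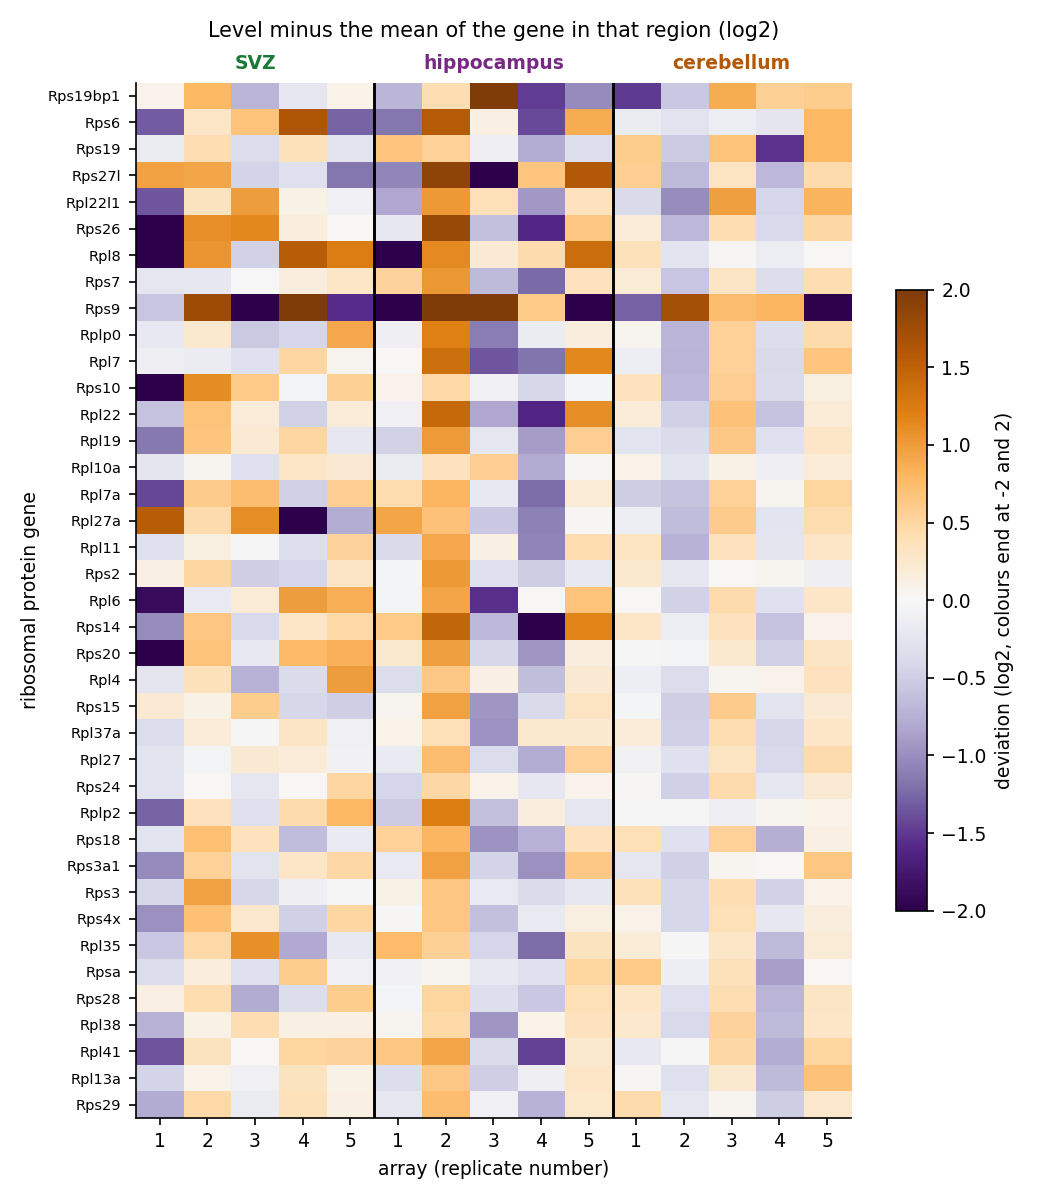
Each row is 1 of the 39 ribosomal protein genes above 3 and each column 1 array, coloured by its log2 level minus the mean of that gene in the same region, with the colours ending at -2 and 2. Hippocampus array 2 is above the mean in all 39 rows, hippocampus array 4, SVZ array 1 and cerebellum array 2 are mostly below it, and rows such as Rps9 and Rpl8 hold some of the darkest cells.

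A few members left the common pattern. Rps9, a small subunit protein that acts early in its assembly, read 5.84, 8.17, 4.42, 8.77 and 4.83 in SVZ, 3.40, 9.19, 8.99, 7.30 and 4.50 in hippocampus, and 5.10, 8.11, 7.14, 7.20 and 4.42 in cerebellum. Each region held both high and low arrays. A second probe set of Rps9 read 3.99, 7.21, 5.95, 6.57 and 5.80 in SVZ, 5.70, 7.81, 4.93, 6.02 and 7.66 in hippocampus, and 7.16, 6.75, 7.41, 6.65 and 7.44 in cerebellum, so that hippocampus array 3 was high on the first and the lowest of its region on the second. Rpl8, a large subunit protein near the peptidyl transferase centre, read 2.12, 6.58, 5.06, 7.08 and 6.77 in SVZ and 2.98, 7.29, 6.37, 6.60 and 7.53 in hippocampus, against 6.95, 6.32, 6.60, 6.45 and 6.58 in cerebellum. Array 1 of each forebrain region stood far below the rest. Rps9 and Rpl8 were chosen after their values were seen.

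Probe sets beyond the one used for a gene gave a further reading of 24 members. Of 56 such probe sets, 43 had the sign of the one used in SVZ against cerebellum, 40 in hippocampus against cerebellum and 41 in SVZ against hippocampus. Of the 33 with a mean above 3 the counts were 31, 24 and 27. Rps3, a small subunit protein at the mRNA entry channel, was also read by a dim probe set that passed the test, at 1.44, 1.50, 1.55, 1.41 and 1.87 in SVZ, against 3.05, 2.63, 3.53, 3.30 and 2.89 in cerebellum, and from 2.17 to 2.75 in hippocampus, above every SVZ array and reaching into the cerebellum range. It gave -1.53 ± 0.18 for SVZ against cerebellum (adjusted p = 0.000177, limma), while the brighter probe set used for Rps3 gave -0.48 and did not pass (adjusted p = 0.373 in the same fit). In hippocampus against cerebellum it also passed, at -0.73 ± 0.18 (adjusted p = 0.0331, limma). A dim probe set of Rpl22 passed there as well, at -1.22 ± 0.27 (adjusted p = 0.0173, limma), with 1.14 to 1.82 in hippocampus and 2.52 to 3.19 in cerebellum. With the probe set of Rps27l described above, 2 of the 56 further probe sets were called lower in each of these comparisons, against 4.11% and 3.60% of all probe sets of 1 gene. The probe sets of Rps3 and Rpl22 were chosen after their values were seen.

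The 110 probe sets shared with other genes were mostly negative as well. In SVZ against cerebellum 0 were called higher and 1 lower, against 0.804% and 4.09% of the 35055 probe sets tested. In hippocampus against cerebellum it was also 0 higher and 1 lower, against 0.628% and 3.59%, and in SVZ against hippocampus none was called, against 0.0143%. In these 3 comparisons 86, 84 and 74 were negative, with medians of -0.54, -0.26 and -0.13. Of the 85 with a mean above 3, 75 were negative in SVZ against cerebellum, beside 76.5% of all probe sets above 3, 71 in hippocampus against cerebellum, beside 79.2%, and 61 in SVZ against hippocampus, beside 46.6%. These probe sets cannot be assigned to one gene.

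Other genes of protein synthesis were read from lists. In SVZ against cerebellum 12 of their 163 measured genes fell, or 7.36%, and none rose, and in hippocampus against cerebellum 9 fell, or 5.52%, and none rose. The shares of all genes called lower were 4.47% and 3.97% in these comparisons. Of the 4816 genes above 3, 481 and 440 were called lower, and the lists hold genes above and below 3. The list counts moved with single arrays. In SVZ they were 7 without cerebellum array 5 and 19 without hippocampus array 4. In hippocampus they were 2 without cerebellum array 5 and 13 without hippocampus array 2. With the spike-in covariate they were 1 in SVZ and 0 in hippocampus. The mitochondrial ribosome, which translates the few mRNAs of the mitochondrial genome, held most of them. It is assembled from other proteins than the cytosolic ribosome. Of 76 mitochondrial ribosomal protein genes 9 fell in SVZ and 5 in hippocampus against cerebellum. Their medians were -1.04 and -0.80, with 70 and 65 negative. Over all genes above 3 the medians were -0.715 and -0.699, and over all genes 0.068 in both comparisons. Mrps35 read 1.04, 2.22, 1.75, 1.74 and 2.71 in SVZ, against 4.67, 4.10, 4.12, 3.32 and 4.21 in cerebellum, a difference of -2.19 ± 0.30 (adjusted p = 0.000648, limma). Mrpl48 gave -2.24 ± 0.61 in SVZ (adjusted p = 0.0458, limma). In hippocampus Mrps14 gave -2.16 ± 0.55 (adjusted p = 0.0365, limma) and Mrpl49 -1.60 ± 0.32 (adjusted p = 0.0095, limma).

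Of 25 initiation factor genes 1 fell in each comparison with cerebellum. In SVZ this was Eif3k, a subunit of the scaffold factor eIF3, at -2.03 ± 0.44 (adjusted p = 0.0154, limma), and in hippocampus Eif1ax, which acts in start site scanning, at -1.67 ± 0.43 (adjusted p = 0.0413, limma). Of 15 elongation and termination genes 1 fell in SVZ and 2 in hippocampus. Eef1e1, part of the complex of tRNA synthetases, gave -1.25 ± 0.25 in SVZ (adjusted p = 0.00839, limma). In hippocampus the release factor gene Gspt1 gave -2.09 ± 0.53 (adjusted p = 0.037, limma) and the recycling factor gene Abce1 gave -1.63 ± 0.43 (adjusted p = 0.0478, limma).

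Of 34 ribosome assembly genes 1 fell in SVZ and 0 in hippocampus. Sbds, which helps to release eIF6 from the new large subunit, read 4.37, 5.03, 4.57, 3.88 and 4.97 in SVZ, against 6.21, 6.01, 5.76, 5.38 and 5.59 in cerebellum, without overlap (-1.23 ± 0.23, adjusted p = 0.00662, limma). In hippocampus Pes1 gave -1.30 and Gtpbp4 -1.80, short of the threshold (adjusted p = 0.128 and 0.157, limma), and 3 assembly genes had an unadjusted p under 0.05. Of 12 mTORC1 and S6 kinase genes 0 passed in SVZ, with 0 at an unadjusted p under 0.05 and 1 fell in hippocampus. The smallest p in SVZ belonged to Akt1s1, with a difference of 0.47 (adjusted p = 0.362, limma), and Rheb, with a difference of -0.94 (adjusted p = 0.366, limma). Rheb, the GTPase that activates mTORC1, read 2.35, 5.66, 3.14, 2.68 and 3.16 in hippocampus, against 5.64, 4.92, 5.17, 5.67 and 6.48 in cerebellum (-2.18 ± 0.57, adjusted p = 0.0439, limma), with hippocampus array 2 inside the cerebellum range. Fau, which encodes a small subunit protein fused to a ubiquitin-like domain and was the only gene measured on a list of 3 further ribosome genes, gave -0.43 in SVZ (adjusted p = 0.471, limma) and -0.38 in hippocampus. In SVZ against hippocampus none of these genes passed, and the smallest p on each list belonged to Eif5b, Abce1, Ltv1, Tsc1 and Mrps6 (adjusted p from 0.364 to 0.565, limma).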

How the data were processed

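The deposited values are log2 signals of 45101 probe sets on 15 Affymetrix mouse arrays, which the authors made with RMA according to the submitters' processing notes. Neither log base nor RMA version is given in the sources used here, and array maxima of 14.97 to 15.08 led to reading the values as log2. Per the labels' protocols, total RNA was taken up in Trizol, cleaned on RNeasy Micro columns, amplified by WT-Ovation Pico and labelled with biotin. No detection calls were given, and the array number and the background of dim probe sets set the precision.

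The 34945 probe sets with 1 gene symbol in the platform annotation were kept, 34741 of which matched a current Entrez entry. Left out were 932 with several symbols, 9160 not listed and 64 controls. Each gene was read from its probe set with the highest mean. limma 3.58.1 in R 4.3.3 with data.table, version 1.17.8, fitted region over all 15 arrays, with p-values adjusted by Benjamini-Hochberg over all 18193 genes, and was tested on simulated data. Intervals are 95%. No test was made over a list of genes. Figures used matplotlib 3.10.9 in Python 3.11.15.

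The members, the lists (astroglial, microglial, oligodendrocyte, neuronal, cerebellar neuron, endothelial, ependymal and choroid, and red blood cell markers, other ribosome genes, initiation, elongation and termination, assembly, mTORC1 and mitochondrial ribosome genes) and the tests were chosen with earlier results of these data known. Named members were called members or, where fewer than 5 were called, the 5 with the smallest p in a comparison, the stalk genes and Rpsa, paralogs with their parent genes, and Rps6. On each pathway list the 2 largest called differences were named, or the 2 smallest p. Marker lists not described in the text had these calls: of 7 oligodendrocyte markers 2 were higher and 1 lower in SVZ than cerebellum, and 1 and 1 in hippocampus than cerebellum. Of 6 cerebellar neuron markers 3 and 2 were lower in the same comparisons, of 6 endothelial markers 1 was higher in SVZ, and the 6 neuronal and 2 measured red blood cell markers had none. Against hippocampus, SVZ had no call on any list.

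Replicate numbers were not used as pairs, since no label ties them to a shared animal or day. Alternatives were quantile normalization, median centring, the replicate block, only genes above 3, other probe set rules, array weights, a trended spread, only the compared regions, the spike-in covariate, the thresholds of the series design and leaving out each array. Leaving out SVZ array 1 with hippocampus array 3, and cerebellum arrays 4 and 5, were chosen after seeing the data.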

Additional observations from a re-analysis of the deposited data

Results flagged for a closer look

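In 66 groups of 5 arrays, 63 for the 21 named members in each region and 3 for the array medians of all members, the highest or lowest array was compared with its nearest neighbour, and 5 groups had an array whose gap exceeded 0.71 of the whole range. Chance alone gives about 1 in 20 such groups. Rpl41 read 7.69 on SVZ array 1, where the next array read 9.05. Rps27 read 0.54 on the same array, where the next read 0.89, and 1.60 on cerebellum array 3, where the next read 0.97. Rpl37a read 7.35 on hippocampus array 3, where the next read 8.40, and Rps6 read 4.71 on cerebellum array 5, where the next read 3.80. The causes were not tested.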

How the results depend on the processing

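Under 29 alternatives no member was called higher in any comparison, none was called in SVZ against hippocampus, and no called result changed sign. The Rpl14 call in SVZ against cerebellum was kept in every fit that tested the gene, at -3.13 to -2.33. Members called lower in SVZ against cerebellum, 1 as reported, were 2 with probe sets averaged per gene, 2 without _s, _x and _a probe sets, 2 with only the 2 regions compared, 2 over 4-fold, 2 without SVZ 1 and hippocampus 3, and 3 with every probe set on its own. In hippocampus against cerebellum they were 0 with quantile normalization, 0 with dim genes left out (Rpl14 was then not tested), 0 with only the 2 regions compared, 0 with the spike-in covariate, 0 over 4-fold, 0 under both added settings, 2 without _s, _x and _a probe sets and 3 with every probe set on its own. The replicate block left the member counts at 1, 1 and 0 and their median at -0.44 in SVZ against cerebellum. Deviations of same-numbered arrays correlated at only -0.121 to 0.138, with 3 of 15 pairs over 0.1, but the own number was the best match for 10 of 15, where chance gives 3, and for all 5 pairs of SVZ and cerebellum, a hint of pairing from the data and not from the design. Leaving out 1 array gave 1 to 2 members lower in SVZ and 0 to 1 in hippocampus against cerebellum, and 0 in SVZ against hippocampus. Member medians then lay at -0.573 to -0.319, -0.425 to -0.120 and -0.321 to -0.093 in the 3 comparisons. The pathway lists, with 12 and 9 genes lower in SVZ and hippocampus against cerebellum, gave in SVZ 3 with quantile normalization, 1 with the spike-in covariate, 4 without cerebellum 4 and 5, 24 with dim genes left out, 27 with the mean of probe sets, 27 with array weights, 28 with only the 2 regions compared and 28 with every probe set (then 1 higher). In hippocampus they gave 5 with the replicate block, 1 with quantile normalization, 4 with the trended spread, 0 with the spike-in covariate, 3 over 4-fold, 4 without SVZ 1 and hippocampus 3, and 2 without cerebellum 4 and 5. In SVZ against hippocampus 1 was higher over 4-fold. Leaving out 1 array gave 7 to 19 and 2 to 13. Counts over all genes ranged from 41 to 409 higher and 150 to 1435 lower in SVZ, and 35 to 244 and 185 to 1257 in hippocampus, against cerebellum. The causes of these changes were not tested. Values near the lowest of an array cannot show a further decrease, and 5 pools per region leave wide intervals for the more variable genes.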

Other observations

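Paralogs and their parent genes gave further values. Rpl7l1, a relative of Rpl7, averaged 2.21 ± 0.48 in SVZ, 2.71 ± 1.44 in hippocampus and 3.39 ± 0.83 in cerebellum (SD, n = 5), and single arrays stood apart, such as hippocampus array 4 at 5.15. Rpl7 averaged 6.85 ± 0.30 in SVZ, 6.31 ± 1.26 in hippocampus and 7.25 ± 0.59 in cerebellum. Its hippocampus arrays read 6.32, 7.67, 4.96, 5.13 and 7.46. Rps4x, the X-linked form of a small subunit protein, averaged 8.72 ± 0.70 in SVZ, 8.67 ± 0.46 in hippocampus and 8.83 ± 0.31 in cerebellum, and its paralog Rps4l read between 0.91 and 2.55 on all 15 arrays. Rpl39, a short protein of the exit tunnel, averaged 2.20 ± 0.27 in SVZ, 2.62 ± 0.56 in hippocampus and 2.86 ± 0.53 in cerebellum.

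The largest positive difference of a member in SVZ against cerebellum was that of Rps25, 1.08 ± 0.52 (adjusted p = 0.249, limma), which did not pass the test and was chosen after its value was seen. Its mean was 1.99, and it read 4.61 on SVZ array 5, against 1.68 to 2.61 on the other SVZ arrays and 0.47 to 2.30 in cerebellum. Rps19bp1, the binding partner of Rps19, averaged 2.20 ± 0.55 in SVZ, 3.23 ± 1.71 in hippocampus and 3.85 ± 1.00 in cerebellum, a difference of -1.65 ± 0.70 for SVZ against cerebellum (adjusted p = 0.195, limma).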
